A study of Mus musculus with 12 samples.

Results

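The guanylate-binding proteins (GBPs) are a family of large GTPases, and 10 of their mouse genes were followed here across regulatory-type and control T cells. The members, Gbp2b, Gbp3, Gbp4, Gbp5, Gbp6, Gbp7, Gbp8, Gbp9, Gbp10 and Gbp11, were chosen by their symbols among the 22180 genes measured. A gene was represented by the transcript cluster (a set of array probes for 1 transcript) that the platform annotation gives exactly its symbol, and by the brightest one over the 12 arrays if it had several. Each of the 10 had 1 such cluster, so brightness decided nothing. The means over the 12 arrays ran from 3.66 for Gbp6 to 10.63 for Gbp7 on the log2 scale, and 9 of the 10 lay above 5.60, the median of all genes. A further cluster is annotated with Gbp2 and Gbp2b together and stayed out of the comparisons.

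GBPs are among the genes most strongly induced by interferons, above all by interferon-γ, in part through the transcription factor IRF1. They bind and hydrolyse GTP, assemble on the membranes of vacuoles that hold bacteria or parasites and on bacterial surfaces, and help to open them. What is released feeds the caspase-11 and AIM2 inflammasomes. In mice the genes lie in a cluster on chromosome 3 and a second cluster on chromosome 5. T cells carry the interferon-γ receptor and make GBPs themselves.

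The T cells came from C57BL6 mice that carry a green fluorescent reporter of Foxp3, the factor that defines regulatory T cells. Resting CD8 or CD4 cells, 200000 per well, were stimulated by 20000 CD11c dendritic cells of the BALB/c strain, which makes them alloreactive. For the controls, the cytokine was IL-2 alone (5 ng/mL) and the reporter-negative fraction was sorted. Foxp3 was induced by the same IL-2 plus TGF-β (5 ng/mL) plus retinoic acid (40 nM), and here the reporter-positive fraction was sorted. Culture lasted 4 days for the CD8 and 5 days for the CD4 lineage, so lineage and culture time cannot be told apart. Treatment and Foxp3 sort also changed together. This gave 4 groups with 3 arrays each (replicates A, B and C), a control and a Foxp3-positive group for each lineage. Cells were pooled before the sort, and nothing states that replicates came from separate animals or cultures, so the p-values rest on array-to-array spread that may be technical.

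The label checks followed the labels. Foxp3 stood at 5.66 and 5.76 in the controls and at 12.48 and 12.44 in the Foxp3-positive groups of CD8 and CD4 cells. Cd4, Cd8a and Cd8b1 separated the lineages. Cd4 had means of 5.36 and 5.17 in CD8 cells (control, then Foxp3-positive) and 12.31 and 11.92 in CD4 cells. In that order Cd8a had 11.79, 12.54, 6.51 and 7.54, and Cd8b1 had 11.86, 11.97, 7.72 and 6.17. Their means in the CD4 groups thus lay above 5.60, the median of all genes. Arrays of 1 group correlated at r = 0.992 to 0.994 across all genes. Markers of dendritic cells, which make GBPs when activated, were measured for 16 of 18 list members. Their summed level on the log2 scale was 11.45 to 11.74 for control and 12.01 to 12.21 for Foxp3-positive arrays of CD8 cells, and 11.71 to 11.97 and 11.74 to 12.19 for those of CD4 cells. The list's medians were 6.06, 5.82, 5.93 and 5.82 in the same order. Of the 16 genes 4 were higher and 2 lower in CD8 Foxp3-positive cells, and 3 higher and 2 lower in CD4 ones. Ccr7 had means of 8.97, 10.48, 9.20 and 10.26. Itgax (CD11c) had 6.53, 4.77, 4.95 and 4.87, and Batf3 had 6.72, 5.76, 7.12 and 5.56. T cells also express some of these markers, such as Ccr7 and Irf8. The sums of 12 macrophage and monocyte markers were 9.37 to 9.71, 9.27 to 9.64, 9.50 to 9.62 and 9.06 to 9.25 in the same order. Cd68, the brightest of them, had means of 8.56, 7.92, 8.57 and 7.38, and Lyz2 had 4.55, 6.37, 4.45 and 5.51. Of the 12 genes 3 were higher and 1 lower in CD8 Foxp3-positive cells, and 1 higher and 1 lower in CD4 ones. The list's medians were 4.76, 5.26, 5.07 and 5.23. The sums of 7 B cell markers were 12.01 to 12.25, 13.18 to 13.31, 11.05 to 11.20 and 12.76 to 12.94, again in this order. The B cell sum was carried by Ighm (means of 11.99, 13.15, 10.96 and 12.78), and the list's medians were 5.12, 5.12, 5.42 and 5.51. Of its 7 genes 3 were higher and 0 lower in CD8 Foxp3-positive cells, and 2 higher and 1 lower in CD4 ones. Cd79b had means of 7.37, 8.47, 6.06 and 6.83, while Ms4a1 and Pax5 passed in neither lineage. Of all genes 9.39% were higher and 10.6% lower in CD8 cells, and 12.1% and 10.4% in CD4 cells. Of the NK and γδ T cell markers 3 of 7 were measured, with sums of 6.06 to 6.60, 7.95 to 8.15, 6.02 to 6.47 and 7.51 to 7.69. That sum followed Klri2 (means of 5.07, 7.82, 4.72 and 7.29), while Ncr1 and Klrb1c passed in neither lineage and the list's medians ran from 4.67 to 4.88. Array values have no true 0, and the part of these cells in the results was not tested.

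The GBP genes moved in opposite directions in the CD4 comparison, and the direction followed the chromosome for all but 1 gene. In Foxp3-positive CD4 cells all 10 passed the threshold (limma, adjusted p under 0.05), 3 higher and 7 lower than in CD4 controls. With only the CD4 groups in the fit, 2 of these calls ended, those of Gbp3 (adjusted p = 0.0815) and Gbp7 (adjusted p = 0.0586). Across all genes 22.5% passed, 12.1% higher and 10.4% lower. The arrays of the groups did not overlap for any of the 10, against 37.8% of all genes without overlap. The 3 that rose, Gbp2b, Gbp3 and Gbp5, lie on chromosome 3. The 6 genes of chromosome 5 all fell, by a median of 2.28 on the log2 scale, and so did Gbp7 of chromosome 3. Probes may read more than 1 of the chromosome 5 genes, so these 6 may not be separate measurements. In CD8 cells 4 of the 10 rose, Gbp2b, Gbp3, Gbp5 and Gbp8, and none fell, where 9.39% of all genes were higher, 10.6% lower and 20.0% called in either direction. The other 6 did not pass in CD8 cells. An unadjusted p under 0.05 was found for 5 of the 10, against 6633 of all 22180 genes. Arrays did not overlap for 6, against 33.5% of all genes. In bulk RNA, fewer expressing cells and less RNA per cell cannot be told apart.

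**Figure D1:**
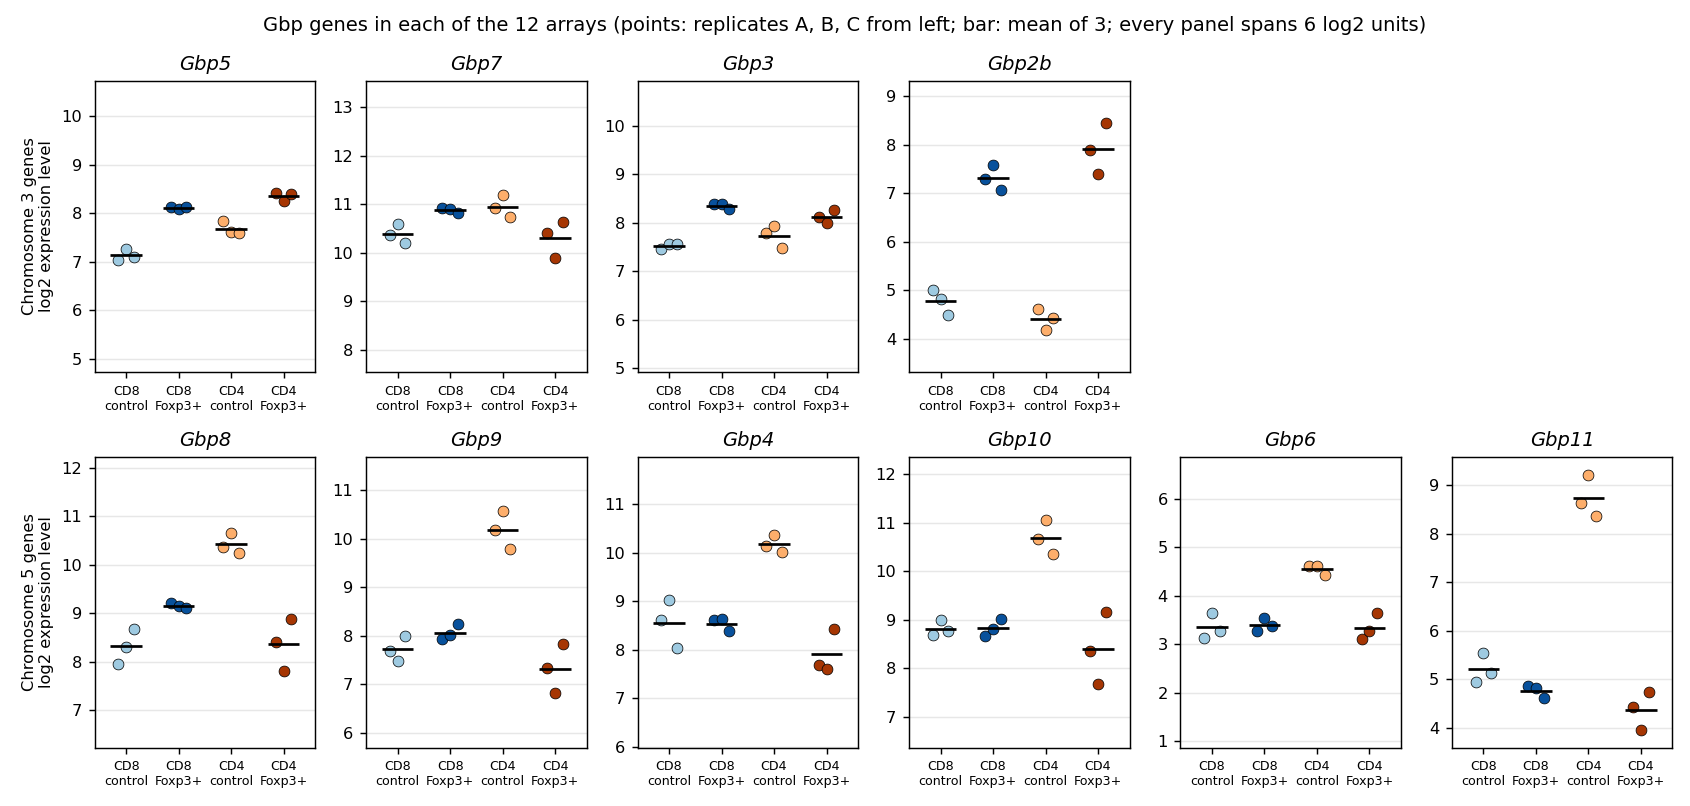
Log2 expression level (vertical axis, 6 log2 units in every panel) of each Gbp gene in the 4 groups (horizontal axis), with a point for each array and a bar for the mean of 3. The upper row holds the chromosome 3 genes and the lower row the chromosome 5 genes, in the order of the chromosome. CD4 control arrays stand above all other arrays for the 6 chromosome 5 genes.

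Gbp2b, formerly called Gbp1, carried the largest rise of the family in both lineages. Its level was 5.01, 4.82 and 4.48 in CD8 controls and 7.30, 7.59 and 7.06 in CD8 Foxp3-positive cells. For CD4 cells it was 4.61, 4.17 and 4.43 without and 7.88, 7.39 and 8.45 with Foxp3. All Foxp3-positive arrays lay above all control arrays, with no overlap in either lineage. The rise was 5.83-fold in CD8 cells (log2 fold change 2.54 ± 0.24 (SE), adjusted p = 6.04e-06) and 11.3-fold in CD4 cells (3.50 ± 0.24, adjusted p = 2.42e-07). The effect was 0.96 ± 0.33 smaller in CD8 than in CD4 cells on the log2 scale, which did not pass (adjusted p = 0.0782). It did without CD4 Foxp3-positive replicate B (adjusted p = 0.0177), with dim genes left out (0.0382) and with an intensity trend in the prior variance (0.0482). Control levels lie below the median of all genes, so these folds are ratios of array signal. They come from the cluster of Gbp2b alone. The brighter cluster annotated with Gbp2 and Gbp2b together rose in CD8 cells (2.38 ± 0.18). In CD4 cells it did not pass (0.40 ± 0.18, adjusted p = 0.162 by limma over all clusters).

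Gbp5, which promotes assembly of the NLRP3 inflammasome, changed less but with little spread. CD8 controls stood at 7.03, 7.27 and 7.09 and CD8 Foxp3-positive cells at 8.12, 8.08 and 8.14. CD4 controls stood at 7.84, 7.60 and 7.59 and CD4 Foxp3-positive cells at 8.41, 8.24 and 8.39. The 4 groups did not overlap with one another, and CD4 Foxp3-positive cells were highest and CD8 controls lowest. The rise was 1.97-fold in CD8 cells (0.98 ± 0.10, adjusted p = 1.18e-05) and 1.59-fold in CD4 cells (0.67 ± 0.10, adjusted p = 0.000217).

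Gbp3 had values of 7.45, 7.57 and 7.56 in CD8 controls against 8.40, 8.39 and 8.28 in CD8 Foxp3-positive cells. In CD4 controls it stood at 7.80, 7.93 and 7.47 against 8.12, 8.004 and 8.27 in CD4 Foxp3-positive cells. Foxp3-positive arrays were again above the controls of their lineage without overlap, while the controls of both lineages overlapped. The rise was 0.83 ± 0.12 in CD8 cells (adjusted p = 0.000194) and 0.39 ± 0.12 in CD4 cells (adjusted p = 0.0265). The CD4 call was lost without CD4 control replicate C or without CD4 Foxp3-positive replicate A or C (adjusted p from 0.0603 to 0.110). It was also lost when values were quantile-normalized again (adjusted p = 0.0666).

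Gbp7, reported to act in delivering oxidative and autophagic defences to vacuoles, was the exception on chromosome 3. CD8 controls had 10.36, 10.59 and 10.19 and CD8 Foxp3-positive cells 10.92, 10.90 and 10.81. CD4 controls had 10.92, 11.19 and 10.73 and CD4 Foxp3-positive cells 10.41, 9.89 and 10.63. Arrays did not overlap within either lineage, with Foxp3-positive cells above controls for CD8 and below them for CD4. The fall in CD4 cells was called (-0.64 ± 0.17, adjusted p = 0.0185), and the CD8 difference was not (0.50 ± 0.17, adjusted p = 0.0650), but it passed in 6 of 21 alternatives. These were the fit of the CD8 groups alone (adjusted p = 0.0197), an intensity trend in the prior variance (0.0291), dim genes left out (0.0302), quantile normalization (0.0481), and CD4 Foxp3-positive replicate B or C left out (0.0198 and 0.0421). The difference between the lineages' effects passed (1.13 ± 0.25, adjusted p = 0.00872). Leaving out replicate B of the CD4 Foxp3-positive cells (adjusted p = 0.0734) or of the CD4 controls (adjusted p = 0.0850) ended the CD4 call.

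Promoters were available only for these 4 genes, neighbours on chromosome 3 that moved unequally. The reference table, from RefSeq with build GRCm38.p6, held promoters for 4 of the 10 members, each 250 bases before to 50 bases after the start of the gene. They were searched on both strands for GAAA, any 2 bases and GAAA, the core of the interferon-stimulated response element (ISRE) to which IRF proteins bind, and for TTC, any 3 bases and GAA, the core of the γ-activated sequence (GAS) of interferon-γ target genes. Matches are in capitals.

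Gbp5, chr3:142496684-142496983, plus strand: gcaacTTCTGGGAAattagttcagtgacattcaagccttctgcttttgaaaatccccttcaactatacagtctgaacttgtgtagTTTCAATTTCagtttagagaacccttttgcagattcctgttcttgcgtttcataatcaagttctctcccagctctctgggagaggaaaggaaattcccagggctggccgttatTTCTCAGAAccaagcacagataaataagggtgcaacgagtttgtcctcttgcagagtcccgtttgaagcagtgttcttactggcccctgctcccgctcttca
Gbp7, chr3:142530086-142530385, plus strand: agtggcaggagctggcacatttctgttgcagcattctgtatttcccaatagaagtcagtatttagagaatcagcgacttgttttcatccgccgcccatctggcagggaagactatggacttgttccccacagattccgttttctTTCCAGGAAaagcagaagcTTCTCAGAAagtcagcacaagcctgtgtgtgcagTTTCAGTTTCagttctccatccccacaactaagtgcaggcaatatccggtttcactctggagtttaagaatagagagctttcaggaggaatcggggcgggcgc
Gbp3, chr3:142559794-142560093, plus strand: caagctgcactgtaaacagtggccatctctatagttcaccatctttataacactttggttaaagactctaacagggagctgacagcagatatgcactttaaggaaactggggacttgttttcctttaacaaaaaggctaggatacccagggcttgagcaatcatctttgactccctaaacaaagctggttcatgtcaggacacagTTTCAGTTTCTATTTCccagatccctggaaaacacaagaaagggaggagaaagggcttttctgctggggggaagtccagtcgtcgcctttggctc
Gbp2b, chr3:142594597-142594896, plus strand: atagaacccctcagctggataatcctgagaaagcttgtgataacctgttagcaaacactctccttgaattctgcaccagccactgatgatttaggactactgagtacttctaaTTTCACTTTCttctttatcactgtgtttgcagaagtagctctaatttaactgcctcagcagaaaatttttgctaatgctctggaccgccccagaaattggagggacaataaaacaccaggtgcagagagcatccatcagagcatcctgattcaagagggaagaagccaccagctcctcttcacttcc

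Of the 5 promoters listed for these genes, the 4 printed ones held an ISRE-type match, and the second promoter of Gbp3, not printed, held neither motif. Of all 32851 promoters of this length 3.44% held an ISRE-type match. In Gbp2b it lay 137 to 128 bases before the start, in Gbp5 165 to 156 bases and in Gbp7 53 to 44 bases before it. Gbp3 had a pair of overlapping matches, 45 to 36 and 39 to 30 bases before its start, and none in the window of its second listed start. GAS-type matches were found in Gbp5 and Gbp7, 2 in each, and in 8.30% of all promoters. Both motifs together, as in Gbp5 and Gbp7, occurred in 0.454%. Gbp5, which rose in CD4 cells, and Gbp7, which fell, held the same counts of both motifs. A match describes letters and is not a measured binding site.

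The chromosome 5 genes fell together in CD4 cells, and Gbp11 fell most. RefSeq lists Gbp11 as a transcribed pseudogene. CD4 controls stood at 8.64, 9.22 and 8.36 and CD4 Foxp3-positive cells at 4.43, 3.95 and 4.74. CD8 controls stood at 4.95, 5.54 and 5.13 and CD8 Foxp3-positive cells at 4.86, 4.83 and 4.61. The 3 CD4 control arrays were far above the other 9, which all lay below 5.60, and the CD8 groups did not overlap either. Its fall in CD4 cells was 20.6-fold in array signal (-4.36 ± 0.23, adjusted p = 3.08e-08), and in CD8 cells the change was -0.44 (95% interval -0.94 to 0.06, adjusted p = 0.236).

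Gbp9 was at 10.18, 10.57 and 9.80 in CD4 controls and at 7.33, 6.82 and 7.82 in CD4 Foxp3-positive cells. In CD8 controls it was at 7.69, 7.48 and 7.997 and in CD8 Foxp3-positive cells at 7.93, 8.01 and 8.25. CD4 controls were again alone at the top, and the CD8 groups overlapped. The fall in CD4 cells was 7.24-fold (-2.86 ± 0.24, adjusted p = 1.78e-06), and the CD8 change was 0.34 (95% interval -0.18 to 0.86, adjusted p = 0.405).

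Gbp10 was at 10.66, 11.05 and 10.35 in CD4 controls and at 8.35, 7.67 and 9.16 in CD4 Foxp3-positive cells. The CD8 arrays lay between 8.66 and 9.01 whatever their treatment. Gbp10 fell 4.90-fold in CD4 cells (-2.29 ± 0.29, adjusted p = 6.23e-05), and its CD8 change was 0.01 (95% interval -0.61 to 0.63, adjusted p = 0.991). Its 3 CD4 Foxp3-positive arrays spread over 1.49, the widest range of any member in any group.

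Gbp4, which in mouse has been described as a brake on IRF7, was at 10.13, 10.36 and 10.01 in CD4 controls. It was at 7.69, 7.59 and 8.42 in CD4 Foxp3-positive cells. CD8 controls had 8.60, 9.02 and 8.04 and CD8 Foxp3-positive cells 8.61, 8.63 and 8.37. The CD8 groups overlapped fully, and CD4 controls stood apart from every other array. Gbp4 fell 4.82-fold in CD4 cells (-2.27 ± 0.24, adjusted p = 1.39e-05), with -0.02 (95% interval -0.54 to 0.50, adjusted p = 0.977) in CD8 cells.

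Gbp8 was the chromosome 5 gene called in opposite directions in the lineages. CD8 controls had 7.96, 8.31 and 8.68 and CD8 Foxp3-positive cells 9.21, 9.15 and 9.10. CD4 controls had 10.36, 10.65 and 10.25 and CD4 Foxp3-positive cells 8.42, 7.80 and 8.89. Foxp3-positive arrays were above controls in CD8 cells and below them in CD4 cells, without overlap. The rise in CD8 cells (0.84 ± 0.24, adjusted p = 0.0228) was lost without any 1 of 5 of the 6 CD8 arrays, all but CD8 control replicate C (adjusted p from 0.0543 to 0.106). The fall in CD4 cells was 4.14-fold (-2.05 ± 0.24, adjusted p = 2.84e-05).

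Gbp6 was dim in every array, below the median of all genes. CD4 controls had 4.62, 4.62 and 4.43, and the other 9 arrays lay between 3.11 and 3.65. Its fall in CD4 cells (-1.21 ± 0.15, adjusted p = 7.22e-05) is therefore a small ratio of weak signals. The CD8 change was 0.04 (95% interval -0.29 to 0.38, adjusted p = 0.903). Genes of this cluster are close copies of one another, and probes may read more than 1 of them, so single members are uncertain.

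**Figure D2:**
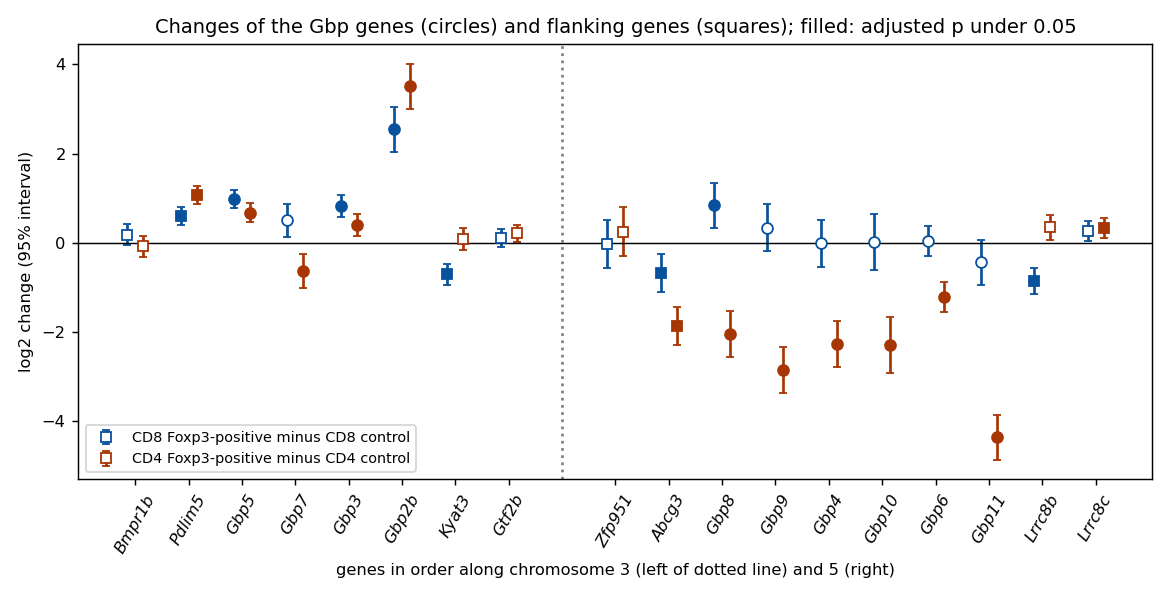
Log2 change of Foxp3-positive against control cells (vertical axis, with 95% intervals) for CD8 cells (blue) and CD4 cells (brown), with genes in chromosomal order (horizontal axis). Circles are Gbp genes, squares the nearest measured other genes, and filled symbols have an adjusted p under 0.05. CD4 changes are negative for all 6 chromosome 5 members, from -4.36 for Gbp11 to -1.21 for Gbp6.

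The effect in CD8 cells was tested directly against that in CD4 cells. It was higher for 7 of 10 members, against 6.01% of all genes (13.5% in either direction). These were Gbp7 and all 6 chromosome 5 genes. Among the latter the difference in log2 fold change ran from 1.26 ± 0.22 for Gbp6 (adjusted p = 0.00226) to 3.92 ± 0.33 for Gbp11 (adjusted p = 1.03e-05). Gbp2b, Gbp3 and Gbp5 did not pass (adjusted p of 0.0782, 0.106 and 0.179). Gbp3 passed without CD4 control replicate C (0.56, adjusted p = 0.0242) and with dim genes left out (adjusted p = 0.0464).

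Control cells of the lineages differed for most of the family. In controls 8 of 10 members were lower in CD8 than in CD4 cells and none was higher, against 8.76% and 12.1% of all genes (20.9% in either direction). Arrays did not overlap for the same 8, against 33.7% of all genes. Gbp11 was 11.6-fold lower in array signal (-3.53 ± 0.23, adjusted p = 3.99e-07), with all its CD8 control arrays below the median of all genes. Gbp9 was 5.50-fold lower (-2.46 ± 0.24, adjusted p = 1.22e-05) and Gbp8 4.30-fold lower (-2.10 ± 0.24, adjusted p = 3.66e-05). Gbp4, Gbp6 and Gbp10 were lower by 1.61, 1.21 and 1.87 in CD8 controls on the log2 scale. Gbp5 was lower by 0.55 (adjusted p = 0.00135). Gbp7 was lower too (-0.57 ± 0.17, adjusted p = 0.0359), but this did not hold when replicate A or C of the CD8 controls, or A or B of the CD4 controls, was left out (adjusted p from 0.0749 to 0.149), nor with all clusters in the fit (adjusted p = 0.0503). Gbp2b (0.37 ± 0.24) and Gbp3 (-0.21 ± 0.12) did not pass. Without CD4 control replicate C Gbp3 did (adjusted p = 0.0472). This comparison uses the same control arrays as the previous ones.

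Foxp3-positive cells of the lineages were compared in the same way. By limma 0 of 10 members differed between CD8 and CD4 Foxp3-positive cells at the adjusted threshold, against 4.71% of all genes (2.41% higher and 2.30% lower). An unadjusted p under 0.05 was found for 6 members, against 3649 of all 22180 genes. Differences ran from -0.59 (95% interval -1.10 to -0.08) for Gbp2b to 0.78 (95% interval 0.27 to 1.29) for Gbp8. Arrays did not overlap for 5 members, Gbp3, Gbp5, Gbp7, Gbp8 and Gbp9, against 22.7% of all genes. Without CD4 Foxp3-positive replicate C, 4 members were called higher in CD8 cells, Gbp4, Gbp7, Gbp8 and Gbp9 (adjusted p from 0.0153 to 0.0420).

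**Figure D3:**
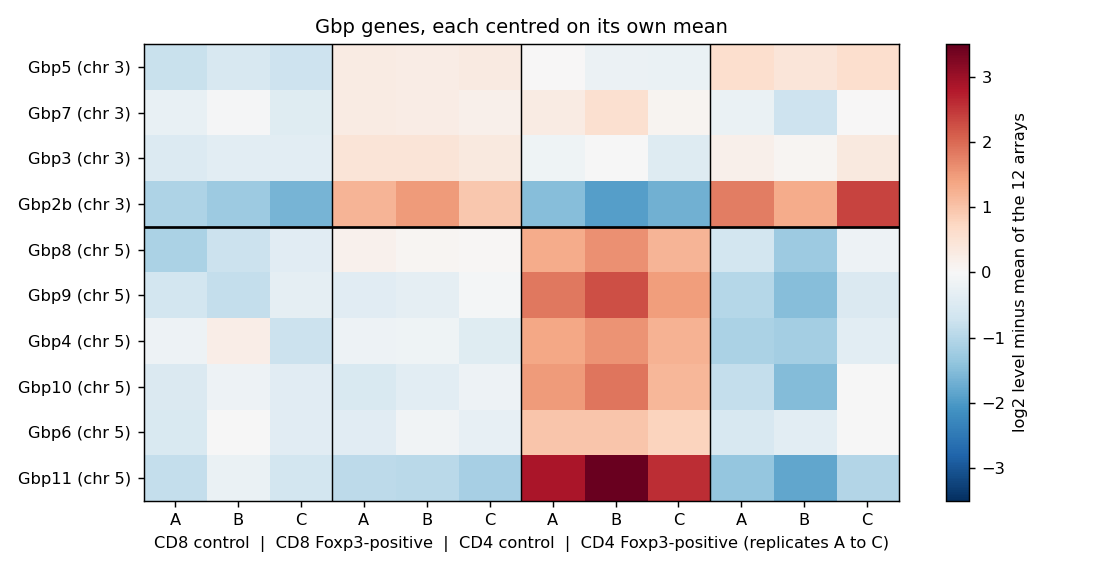
Log2 level of each Gbp gene (rows, in chromosomal order) in each array (columns, 3 per group), minus the gene's mean over the 12 arrays. Red is above and blue below that mean. The CD4 control arrays are red for the 6 chromosome 5 genes, and the Foxp3-positive arrays are red for Gbp2b, Gbp3 and Gbp5.

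Arrays of the CD4 groups had a common order across members. In CD4 Foxp3-positive cells replicate C was highest for all 6 chromosome 5 genes and for 3 of 4 chromosome 3 genes. Replicate B was lowest for 5 of 6 and 4 of 4. In CD4 controls replicate C was lowest for 6 of 6 chromosome 5 genes, and replicate B highest for 5 of 6. The CD8 Foxp3-positive arrays had no such order, with each replicate highest for 2 of the 6, and in CD8 controls replicate B was highest for 4 of 6 and C for 2. Over the 12 arrays, Pearson r between chromosome 5 members ran from 0.87 to 0.97 (15 pairs), that between chromosome 3 members from -0.16 to 0.85 (6 pairs) and that between the chromosomes from -0.72 to 0.81 (24 pairs). Within groups, after each group's mean was subtracted, r was positive in all pairs, with medians of 0.67, 0.43 and 0.54 in that order. Probes may read more than 1 chromosome 5 gene, and the part of this in their r was not tested. Arrays of a group share their sort and treatment, so these values are descriptions. The replicate orders and within-group r were not computed over all genes. Whether they are particular to this family therefore cannot be told.

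Genes flanking the clusters did not all follow them. On chromosome 3 Pdlim5, a cytoskeletal LIM-domain protein beside Gbp5, rose in CD8 (0.59 ± 0.10) and CD4 cells (1.07 ± 0.10). Kyat3, a kynurenine aminotransferase on the other side, fell in CD8 cells (-0.71 ± 0.11). Gtf2b and Bmpr1b passed in neither. On chromosome 5 Abcg3, a transporter gene beside Gbp8, was the flanking gene that fell in CD4 cells, from 7.86 ± 0.17 to 5.99 ± 0.22 (SD, n = 3 each; -1.87 ± 0.20, adjusted p = 1.36e-05). It also fell in CD8 cells (-0.67 ± 0.20, adjusted p = 0.0289). Zfp951 passed in neither, and Lrrc8b and Lrrc8c, subunits of a volume-regulated anion channel, stood at 0.34 ± 0.13 (not passed) and 0.33 ± 0.10 (higher) in CD4 cells. In CD8 cells Lrrc8b fell (-0.86 ± 0.13) and Lrrc8c did not pass (0.26 ± 0.10).

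The genes most like 2 members over the 12 arrays were named by Pearson r. For Gbp2b, the member with the largest rise in CD8 cells, they were Plekha1 (r = 0.98), Klf3, a repressor of the Krüppel-like family (0.98), Fam3c (0.98), Nup153, a nuclear pore protein (0.98), and Ttc39b (0.97). All 5 had higher means in both Foxp3-positive groups. For Gbp11, the lowest change in CD8 cells, they were Kcnmb1, a potassium channel subunit (0.99), Dusp10, a MAP kinase phosphatase (0.99), Trafd1 (0.99), the interferon-induced Ifit1 (0.99) and Slc17a6, a glutamate transporter (0.99). All 5 had their highest mean in CD4 controls, as in Ifit1 with 8.61 ± 0.63 there against 5.60 to 6.03 elsewhere. The 12 arrays form 4 groups, so r mainly reflects the group means.

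Upstream of the GBPs, Ifng, which encodes interferon-γ, fell in Foxp3-positive cells of both lineages. Its level went from 6.64 ± 0.16 (SD, n = 3) to 4.37 ± 0.24 in the CD8 lineage and from 8.13 ± 0.62 to 4.47 ± 0.31 in the CD4 lineage. Of 10 measured genes of interferon-γ and its receptor signalling 5 rose and 1 fell in CD8 cells, with a median change of 0.19. In CD4 cells 3 rose and 5 fell, with a median of -0.37. The medians over all genes were -0.02 and 0.00. Of all genes 9.39% rose and 10.6% fell in CD8 cells, and 12.1% rose and 10.4% fell in CD4 cells. These shares stand beside the counts of this list and of those below. The receptor chain Ifngr2 rose in both lineages (2.29 ± 0.14 and 1.26 ± 0.14). Among the IRF genes of this list, Irf1 rose in CD8 cells (0.72 ± 0.13) and fell in CD4 cells (-0.56 ± 0.13). Irf8 rose in both (0.90 ± 0.12 and 0.95 ± 0.12), and Irf2 did not pass in CD8 cells and fell in CD4 cells (-0.42 ± 0.12). Their part in the GBP changes was not tested. Of 8 type I interferon signalling genes 2 rose and 0 fell in CD8 cells, and 3 rose and 4 fell in CD4 cells, among them Stat2 (-1.50 ± 0.14) and Irf7 (-2.57 ± 0.19).

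Related effector genes showed 2 further patterns. All 6 measured immunity-related GTPases, the other interferon-induced GTPases of vacuoles, rose in CD8 cells, with a median of 1.11, and 1 of them, Irgm1, fell in CD4 cells (-0.90 ± 0.12). Iigp1, for example, rose from 6.13 ± 0.66 to 9.39 ± 0.19 in CD8 cells and stood at 9.75 ± 0.33 and 9.91 ± 0.53 without and with Foxp3 in the CD4 lineage. Among 17 antiviral genes of the type I interferon response 15 fell in CD4 cells and 0 rose, with a median of -2.28. In CD8 cells 5 fell and 0 rose, with a median of -0.08. The chromosome 5 GBP medians were -2.28 and 0.03, and those of chromosome 3 were 0.53 and 0.90, in CD4 and CD8 cells.

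Of 12 antigen presentation genes 1 rose and 1 fell in CD8 cells, while 0 rose and 7 fell in CD4 cells, among them Tap1 (-0.89 ± 0.13) and H2-K1 (-0.74 ± 0.11). Of 9 induced chemokine, enzyme and ligand genes 2 rose and 1 fell in CD8 cells, and 1 rose and 3 fell in CD4 cells. Among all genes 9.39% rose and 10.6% fell in CD8 cells, and 12.1% and 10.4% in CD4 cells. Counts of 1 in these lists lie near those shares, and the larger counts lie above them. No set test was run. The atlastins, GTPases of the same superfamily, gave 0 calls among 2 genes.

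Partners of GBP action were split. Of 10 genes of the ubiquitin-like conjugation that brings GBPs to vacuoles 5 rose and 1, Atg7, fell in CD8 cells, and 3 rose and 0 fell in CD4 cells. Gabarapl2 rose in both lineages (0.70 ± 0.09 and 0.48 ± 0.09). Of 10 inflammasome genes 2 rose and 3 fell in CD8 cells, and 1 rose and 5 fell in CD4 cells. For both lists the shares over all genes were 9.39% higher and 10.6% lower in CD8 cells, and 12.1% and 10.4% in CD4 cells. Casp4, which encodes caspase-11, fell from 6.43 ± 0.23 to 4.68 ± 0.19 in CD8 and from 9.01 ± 0.10 to 5.998 ± 0.03 in CD4 cells. Casp1 fell as well (-2.32 ± 0.16 and -3.05 ± 0.16), and the DNA sensor Aim2 rose in both (0.72 ± 0.10 and 0.67 ± 0.10). Zbp1, a nucleic acid sensor, rose in CD8 (0.99 ± 0.12) and fell in CD4 cells (-1.61 ± 0.12). Among the listed genes, Irf1, Irf2, Irf8, Irgm1, Atg7 and Aim2 were named after their values were seen.

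**Figure D4:**
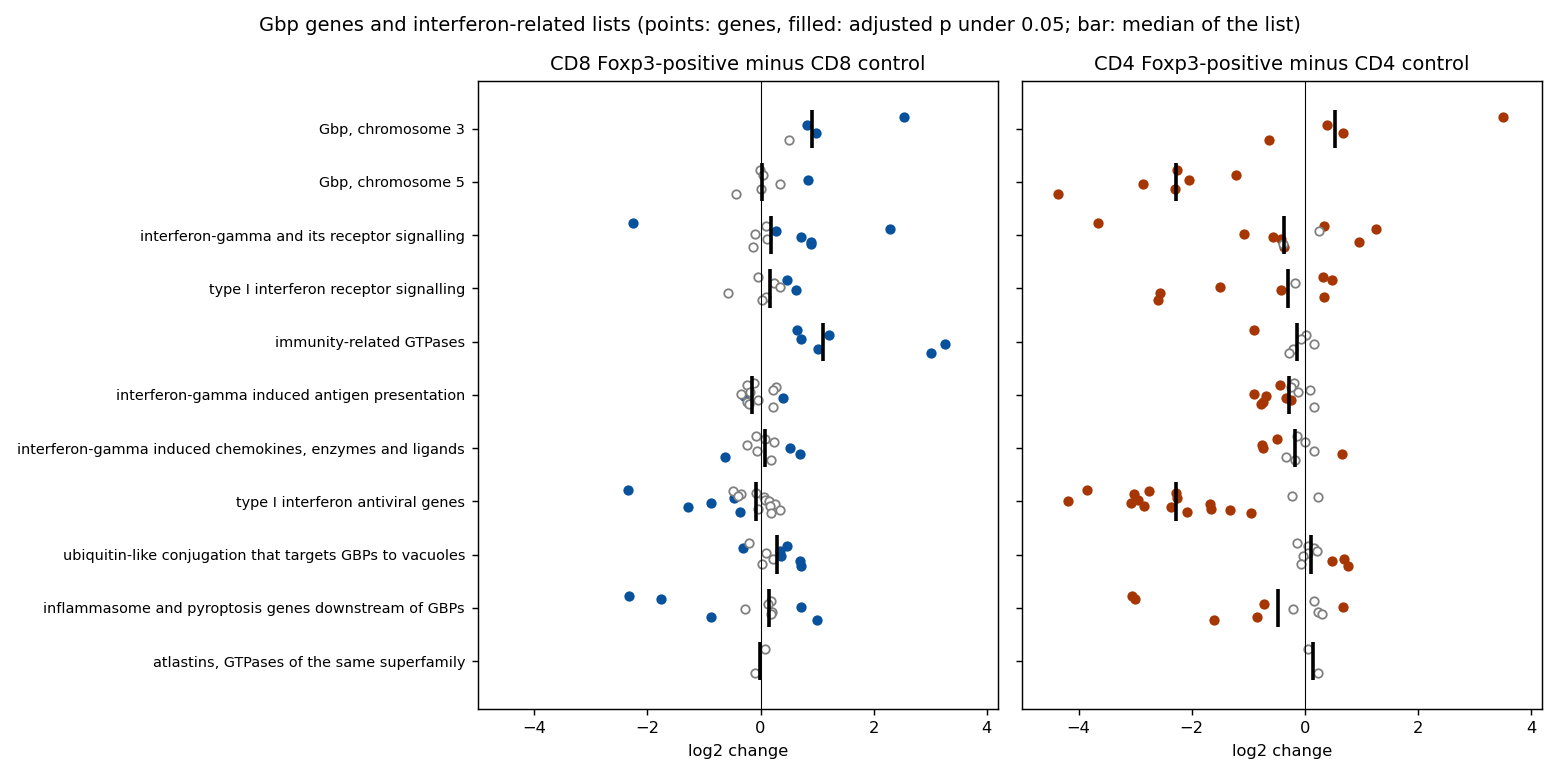
Log2 change of Foxp3-positive against control cells (horizontal axes) in CD8 cells (left) and CD4 cells (right) for the Gbp genes of each chromosome and 9 lists of related genes (rows). Points are genes, filled where the adjusted p is under 0.05, and black bars are medians. In CD4 cells the chromosome 5 Gbp genes ran from -4.36 to -1.21, with a median of -2.28. The type I interferon antiviral genes ran from -4.18 (Oas2) to 0.23 (Ifit3), with a median of -2.28. A common control of the 2 sets was not tested.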

How the data were processed

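Total RNA of sorted T cells was hybridised to 12 Affymetrix arrays, 3 in each of 4 groups. Each transcript cluster has a deposited value in log2 units. The submitters' processing notes name RMA and Affymetrix Expression Console as the tools with which the authors made these log2 values. RMA equalises the arrays' distributions, so a change in total RNA per cell would not show. Versions and genome build were not given in the sources used here. Gene symbols came from GEO's platform annotation. Of 34365 clusters 23521 had exactly 1 symbol, and the brightest per symbol gave 22180 genes, none filtered. All arrays entered 1 linear model with 4 group means (lmFit and eBayes, limma 3.58.1, R 4.3.3), two-sided, with Benjamini-Hochberg adjustment over the 22180 genes and a threshold of 0.05. Intervals at 95% came from the same model, which was tested on simulated data.

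The members and gene lists were chosen with earlier results of these data known. The text names all 10 members, the measured genes flanking each cluster, the 5 genes most like the members with the highest and the lowest change in CD8 cells, and, in lists of related genes, the 3 with the largest change past the threshold and the brightest that passed in neither lineage where the text needs them. Promoters came from RefSeq (GRCm38.p6). The alternatives covered the prior, normalization, a filter on dim genes, the cluster per gene, the samples fitted, the replicate letter as a block, each array left out and stricter thresholds.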

Additional observations from a re-analysis of the deposited data

Results flagged for a closer look

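For 7 Gbp genes the change between control and Foxp3-positive cells differed between CD8 and CD4 cells by a direct test (limma, interaction term, adjusted over all genes), and the values are the CD8 log2 change minus the CD4 one. For Gbp11 it was 3.92 ± 0.33 (SE, adjusted p = 1.03e-05), for Gbp9 3.19 ± 0.34 (adjusted p = 6.43e-05) and for Gbp8 2.89 ± 0.33 (adjusted p = 0.000120). Gbp10 gave 2.30 ± 0.41 (adjusted p = 0.00246), Gbp4 2.25 ± 0.34 (adjusted p = 0.000844), Gbp6 1.26 ± 0.22 (adjusted p = 0.00226) and Gbp7 1.13 ± 0.25 (adjusted p = 0.00872). With 3 arrays in each group, single arrays were not tested as outliers.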

How the results depend on the processing

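Of 1035 values of the members under the alternatives, each of the 12 arrays left out in turn included, 996 kept their side of the threshold, 19 lost the call, 20 gained one and 0 calls reversed. Many of these could hardly move. Averaging clusters left members as they were, since each had 1 cluster. Leaving out an array of a group not compared left the log2 change as it was. With a change of at least 2-fold also required, 1 member was higher in CD8 cells and 1 in CD4 cells, against 4 and 3. Between Foxp3-positive CD8 and CD4 cells 2 members were called higher in CD8 cells when dim genes were left out and 2 with an intensity trend in the prior variance, and with single arrays left out the count ran from 0 to 4. The members whose effect was lower in CD8 than in CD4 cells numbered 1 when dim genes were left out, 1 with the trend, and 0 to 1 with single arrays left out. Gbp6 was too dim to enter the fit without dim genes. The falls of the chromosome 5 genes in CD4 cells passed in every alternative that gave a value. The deviations of same-letter replicates correlated weakly (18 correlations from -0.10 to 0.14, the best match in 9 of 18). Between CD8 control and CD8 Foxp3-positive arrays the own letter matched best for A, B and C (r = 0.05, 0.13 and 0.14). The check therefore cannot decide whether the letters pair the samples. With the letter as a replicate block, 7 members were lower in CD8 than CD4 controls instead of 8 (Gbp7, adjusted p = 0.0595), and no other member count changed. Low array signal limits Gbp6 in every group, Gbp2b in controls and Gbp11 outside CD4 controls, and so the folds of these genes, and 3 arrays per group limit every value.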

Other observations

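The cluster annotated with both Gbp2 and Gbp2b read a mixture that cannot be assigned to either gene. Its level was 8.33 ± 0.22 (SD, n = 3) without and 10.71 ± 0.14 with Foxp3 in the CD8 lineage, and 10.30 ± 0.20 without and 10.70 ± 0.38 with Foxp3 in the CD4 lineage. It rose in CD8 cells (2.38 ± 0.18 (SE), adjusted p = 1.99e-06 by limma over all clusters) and did not pass in CD4 cells (0.40 ± 0.18, adjusted p = 0.162). Gbp2b by its own cluster rose in both lineages. CD8 controls were below CD4 controls in the shared cluster (-1.97 ± 0.18, adjusted p = 1.27e-05).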
